A study of Mus musculus with 14 samples.

Results

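The genes described here are 10 endoderm factors and markers, namely Gata4, Gata6, Sox17, Sox7, Foxa1, Foxa2, Hnf4a, Afp, Ttr and Dab2. They were chosen by gene symbol, through the RefSeq identifiers of the expression tables, and all 10 of 10 had a row among the 23152 loci. The study asked what TAF9B, a TATA-binding protein associated factor, does when mouse ES cells become motor neurons. Poly-A RNA-seq gave 1 library for each of 11 conditions, all labelled C57BL/6. Wild-type (WT) cells were the JM8 clone, and the cells labelled TAF9B -/- (KO) were the Taf9b_BG10 clone, in which a LacZ-Neo cassette takes the place of the coding exons of the X-linked gene. Each genotype was sampled as ES cells, which were grown on embryonic fibroblast feeders, and as embryoid bodies (EB) at day 2, day 4 and day 6 of culture with retinoic acid and the smoothened agonist SAG. Newborn spinal column was sampled in WT and KO and newborn spinal cord in WT. Column is more than neural tissue, and Col1a1, a collagen gene of bone and connective tissue, was at 1423 FPKM in WT and 753 in KO column against 68.9 in cord. ChIP-seq peaks of TAF9B and RNA POL2 came from WT motor neuron EBs of the HBG3 clone after 8 days of differentiation.

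Endoderm is the germ layer that forms gut, liver and lung, and mouse embryos also make 2 extraembryonic endoderm layers, visceral and parietal. GATA4 and GATA6 are zinc finger factors that start the primitive endoderm, and SOX17 and SOX7 are SRY-box factors of the same lineage. FOXA1, FOXA2 and HNF4A act in gut and liver, among other places, AFP and TTR are secreted products of liver, and DAB2 is an endocytic adaptor of visceral endoderm. Most of these genes are not specific to endoderm. Gata4 and Gata6 also act in heart, Sox17 and Sox7 in endothelium, Foxa1 and Foxa2 in floor plate, Ttr in choroid plexus and Dab2 in macrophages and fibroblasts. Retinoic acid and hedgehog signals, which the cultures received, are known inducers of endoderm and of floor plate respectively.

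With 1 library per condition there was no replicate error and no test, so each ratio compares 2 libraries. Values are FPKM, fragments scaled to transcript length and to the number of mapped fragments, and a gene is called higher or lower where its ratio passed 2-fold and 1 of the 2 libraries exceeded 1 FPKM. Read depth was unknown, because the tables hold no counts, and in these bulk samples fewer cells of a type and less RNA per cell cannot be told apart. Taf9b itself went against the genotype labels in culture. In WT and KO it was listed at 0.537 and 3.06 FPKM in ES cells, 0.516 and 4.08 in day 2 EBs, 1.96 and 4.27 in day 4 EBs, and 1.37 and 4.01 in day 6 EBs. In spinal column Taf9b was lower in the library labelled KO, at 3.31 against 6.65 FPKM, and spinal cord had 7.44. A locus value does not show which exons were read. The genotypes below are therefore those of the labels.

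TAF9B peaks lay within 50 kb of a transcription start site (TSS) of Gata4, Hnf4a and Dab2, and the first sequence below is the peak in an intron of Hnf4a, at chr2:163357749-163357926 (mm9, printed 5′ to 3′ on the plus strand, that of the gene). The second is the stretch of 250 bases before the RefSeq start of Afp, at chr5:90490464-90490713 on the plus strand (GRCm38.p6), shown because Afp differed among the tissue libraries. Its capitals mark TATAAA, the core letters of a TATA box.
Hnf4a intron peak: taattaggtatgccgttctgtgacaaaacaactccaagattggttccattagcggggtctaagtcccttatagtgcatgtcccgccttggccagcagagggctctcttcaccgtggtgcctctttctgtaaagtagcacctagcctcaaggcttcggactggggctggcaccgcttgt
Afp upstream: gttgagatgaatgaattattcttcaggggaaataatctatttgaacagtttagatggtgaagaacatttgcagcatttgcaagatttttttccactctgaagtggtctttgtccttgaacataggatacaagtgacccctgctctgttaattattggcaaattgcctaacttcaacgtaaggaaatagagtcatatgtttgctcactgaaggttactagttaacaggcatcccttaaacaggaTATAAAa
The TATAAA match began at base -7 from that start, and 13.6% of the 32851 RefSeq promoters of 300 bases held these letters on either strand. Foxa2 also held them, at base -208 from 1 of its starts. Whether the Afp match acts as a TATA box for that start was not tested. The table of promoters held 5 of the 10 genes.

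Levels of the 10 genes in culture were low and unequal. The factors Gata4, Gata6, Sox17, Sox7, Foxa1 and Foxa2 reached between 2.8 and 10.1 FPKM in their highest libraries, 10.1 being the highest value of any of the 10 genes in the 8 culture libraries. The hepatic and visceral products Afp and Ttr stayed at or under 0.359 and 0.261 FPKM in all 8. Hnf4a exceeded 1 FPKM in none of the 11 libraries. The number of the 10 genes above 1 FPKM went from 1 in ES cells of either genotype to 3 in WT and 2 in KO at day 2, 7 and 6 at day 4, and 7 and 7 at day 6. Between 50.5% and 59% of all loci exceeded 1 FPKM in any library, so the ES cell libraries were below that share and the late EB libraries above it for these genes.

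**Figure D1:**
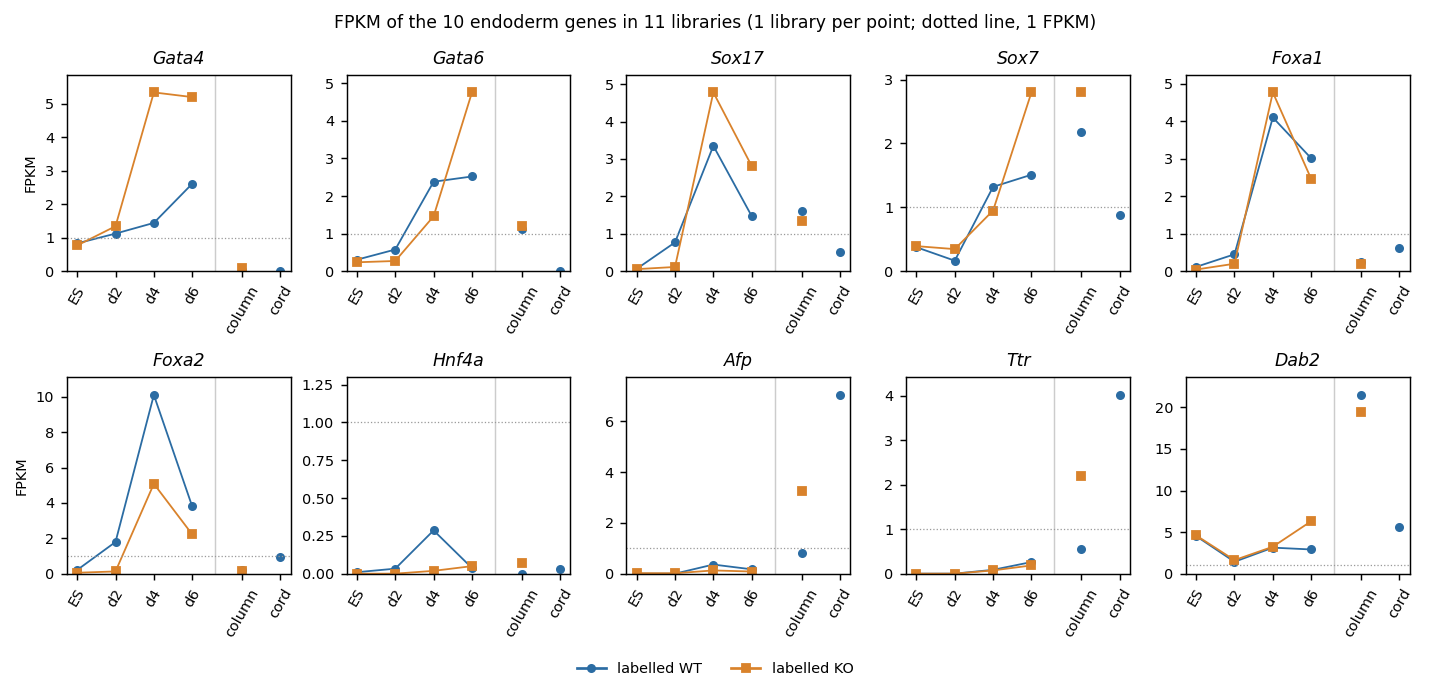
FPKM (vertical axis, linear, from 0, with its own range for each gene) of the 10 genes in ES cells, EB days 2, 4 and 6 (d2, d4, d6), spinal column and spinal cord, with circles for libraries labelled WT and squares for libraries labelled KO, and 1 library per point. The Foxa and Sox17 curves peak at day 4, Gata4 and Gata6 are highest in KO-labelled EBs, and Afp and Ttr are highest in spinal cord.

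Gata4, a zinc finger factor of primitive endoderm and heart, was at 0.828 FPKM in WT and 0.766 in KO ES cells, 1.12 and 1.34 at day 2, 1.44 and 5.34 at day 4, and 2.61 and 5.2 at day 6. It was at 0.0311 and 0.0808 FPKM in WT and KO spinal column and listed at 0 in spinal cord. The KO-labelled EBs of days 4 and 6 stood above all other libraries, and the tissues were below every culture library. Gata6, its close relative, was at 0.303 and 0.234 FPKM in WT and KO ES cells, 0.574 and 0.269 at day 2, 2.38 and 1.46 at day 4, and 2.52 and 4.76 at day 6. It was at 1.13 and 1.2 FPKM in WT and KO spinal column and, like Gata4, listed at 0 in cord. So the pair parted in tissue, where the column libraries held Gata6 almost without Gata4. At day 4 the KO-labelled library was the higher for Gata4 and the lower for Gata6, but the Gata6 difference was within 2-fold.

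Sox17, needed for definitive endoderm, was at 0.0588 and 0.0517 FPKM in WT and KO ES cells, 0.767 and 0.11 at day 2, 3.35 and 4.78 at day 4, and 1.47 and 2.81 at day 6. It was at 1.61 and 1.33 FPKM in WT and KO spinal column and 0.52 in cord. Day 4 was the highest point in either genotype. Sox7, a related factor of primitive endoderm and vessels, was at 0.374 and 0.391 FPKM in WT and KO ES cells, 0.163 and 0.344 at day 2, 1.32 and 0.949 at day 4, and 1.51 and 2.8 at day 6. It was at 2.18 and 2.8 FPKM in spinal column and 0.875 in cord, so that Sox7, unlike Sox17, was as high in column as in any EB.

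Foxa2 is a winged helix factor of the node, definitive endoderm and floor plate. It was at 0.207 and 0.0516 FPKM in WT and KO ES cells, 1.79 and 0.125 at day 2, 10.1 and 5.08 at day 4, and 3.8 and 2.22 at day 6. It was at 0.188 and 0.152 FPKM in WT and KO column and 0.925 in cord. The WT-labelled library was the higher at every culture stage. Foxa1, its relative, was at 0.112 and 0.041 FPKM in WT and KO ES cells, 0.448 and 0.196 at day 2, 4.1 and 4.77 at day 4, and 3.01 and 2.46 at day 6. It was at 0.249 and 0.176 FPKM in column and 0.612 in cord, and was highest at day 4 in either genotype, as Foxa2 was.

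Hnf4a, a nuclear receptor that runs hepatic gene expression, was at 0.00962 FPKM in WT ES cells, and the WT EBs had 0.033 at day 2, 0.286 at day 4 and 0.0374 at day 6. In the KO-labelled cultures it was listed at 0 in ES cells and day 2, and at 0.0185 and 0.0497 FPKM at days 4 and 6. It was listed at 0 in WT column and was at 0.0694 in KO column and 0.0328 in cord. Its highest value, in WT day 4 EBs, was thus far under 1 FPKM. Afp, the fetal serum protein, was listed at 0 in WT ES cells and WT day 2 EBs and was at 0.0197 and 0.0152 FPKM in the KO-labelled ones. It was at 0.359 and 0.127 FPKM in WT and KO at day 4, 0.171 and 0.0834 at day 6, 0.831 and 3.25 in column, and 7.04 in cord. Ttr, the thyroxine carrier transthyretin, was listed at 0 in the 4 libraries of ES cells and day 2. It was at 0.0864 and 0.0727 FPKM in WT and KO at day 4, 0.261 and 0.185 at day 6, 0.545 and 2.2 in column, and 4.02 in cord. Afp and Ttr had the same order in tissue, with cord highest, then KO column, then WT column.

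Dab2 was the only one of the 10 genes above 1 FPKM in all 11 libraries. It was at 4.52 and 4.6 FPKM in WT and KO ES cells, 1.43 and 1.63 at day 2, 3.13 and 3.24 at day 4, and 2.91 and 6.31 at day 6. It was at 21.5 and 19.4 FPKM in WT and KO column and 5.62 in cord. Its dip at day 2 went the opposite way to Foxa2 and Sox17, and the column libraries stood well above all others. The 10 fibroblast genes, listed for the feeders, summed to 380.2 FPKM in WT and 415 in KO ES cells, 69.2 and 72.5 in day 2 EBs, 6.49 and 38.9 in day 4 EBs, 61.4 and 153 in day 6 EBs, 3627 and 2980.1 in column, and 397 in cord. Both Dab2 and the fibroblast sum were lower at day 2 than in ES cells and highest in column, but from day 2 to day 4 the sum was lower and Dab2 higher in each genotype. The part of fibroblasts in the Dab2 values was not tested.

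For the time course, EB and ES cell values came from tables that the authors normalized separately. Over all loci that counted, the median log2 ratio of day 6 over ES cells was 0.20 in WT and 0.15 in KO. In WT, 7 of the 10 genes exceeded 1 FPKM in 1 of these libraries, and 6 of them were higher at day 6, against 23.2% of all loci, while none was lower, against 15%. In KO, the same count of 6 was higher, against 16.9% of all loci, and none was lower, against 9.54%. Each of these 6 was under 1 FPKM in ES cells of either genotype. They counted only through day 6 and could not be called lower, so the shares of all loci are not a like measure. None stayed higher where both libraries must exceed 1 FPKM. In log2 units the WT ratios of day 6 over ES cells were 4.74 for Foxa1, 4.64 for Sox17, 4.20 for Foxa2, 3.06 for Gata6, 2.02 for Sox7 and 1.66 for Gata4. The KO ratios were 5.90, 5.76, 5.43, 4.35, 2.84 and 2.76 in the same order of genes. Each of these 6 ratios therefore ran higher in KO, but the ES cell denominators of Foxa1, Foxa2 and Sox17 were between 0.041 and 0.207 FPKM, where a small difference in level makes a large ratio. Dab2 had a log2 ratio of -0.64 in WT and 0.46 in KO.

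The labels do not say whether the culture stages come from 1 differentiation, so each step compares separate libraries. Among the 10 genes, the step from day 2 to day 4 held the most higher calls. In WT, Foxa1, Sox7, Foxa2, Sox17, Gata6 and Dab2 were higher at day 4 than at day 2, with log2 ratios of 3.19, 3.01, 2.49, 2.13, 2.05 and 1.13, against 15.6% of all loci. In KO, Sox17, Foxa2, Foxa1, Gata6 and Gata4 were higher, with log2 ratios of 5.45, 5.35, 4.61, 2.44 and 2.00, against 15.4%. Foxa1, Sox7, Sox17 and Gata6 in WT were under 1 FPKM at day 2, as were Sox17, Foxa2, Foxa1 and Gata6 in KO. These counted only through day 4 and could not be called lower. From day 4 to day 6, Foxa2 was lower in WT and in KO, with log2 ratios of -1.41 and -1.19, and Sox17 was lower in WT, at -1.19. The backgrounds of lower loci were 9.92% in WT and 11.1% in KO. Gata6 and Sox7 were higher in KO at day 6 than at day 4, with log2 ratios of 1.71 and 1.56, against 12.5% of all loci higher. Sox7 was under 1 FPKM in KO at day 4 and counted only through day 6. The earlier step from ES cells to day 2 held few calls. Foxa2 was higher in WT with a log2 ratio of 3.11, against 5.26% of all loci, and Dab2 was lower in WT and KO, at -1.66 and -1.49, against 7.96% and 8.37%. Foxa2 was under 1 FPKM in WT ES cells and counted only through day 2.

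The wider lists were mixed over the same culture stages. From day 2 to day 4 in WT, the definitive endoderm list held 1 higher and 7 lower of 11 that counted, with a median log2 ratio of -2.66, and its sum was 417 FPKM at day 2 and 75.1 at day 4. Most of that sum was Epcam, at 204 and 23.7 FPKM, and Cdh1, at 143 and 27.8. Both were high in WT ES cells too, at 156 and 146 FPKM. Cxcr4 had the highest ratio of the list, from 2.85 to 9.34 FPKM, and Otx2, a head homeobox factor, the lowest, from 44.4 to 0.095. In KO the same list held 3 higher and 2 lower of 9. The floor plate list held 3 higher and 1 lower in WT, with Nkx2-9 from 0.692 to 19.6 FPKM and Shh from 1.22 to 0.195, and 4 higher and 0 lower in KO. Between WT ES cells and day 6, the definitive endoderm list held 3 higher and 4 lower with a median log2 ratio of -1.26, the parietal endoderm and basement membrane list 3 and 5 with -0.57, the visceral endoderm list 3 and 2 with -0.17, and the floor plate list 5 and 1 with 2.67. In KO the counts were 4 higher and 2 lower, 5 and 0, 9 and 1, and 2 and 2 in the same order of lists, with medians of 0.53, 0.65, 1.57 and 1.60.

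The culture libraries also differed in the level of ES cell genes. The 10 ES cell genes, Pou5f1 and Nanog among them, summed to 6137, 3616, 115 and 1507 FPKM in WT from ES cells to day 6, and to 6610.2, 3834, 874 and 4389 in KO. The sum was thus lowest at day 4 in both genotypes, and all 10 ES cell genes were higher at day 6 than at day 4 in each. The 10 neuron genes, such as Tubb3 and Isl1, summed to 867 FPKM in WT and 111 in KO at day 6. Sums at the earlier stages were between 34.5 and 172. These sums stand beside every comparison of genotypes below, and their part in the results on endoderm genes was not tested.

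**Figure D2:**
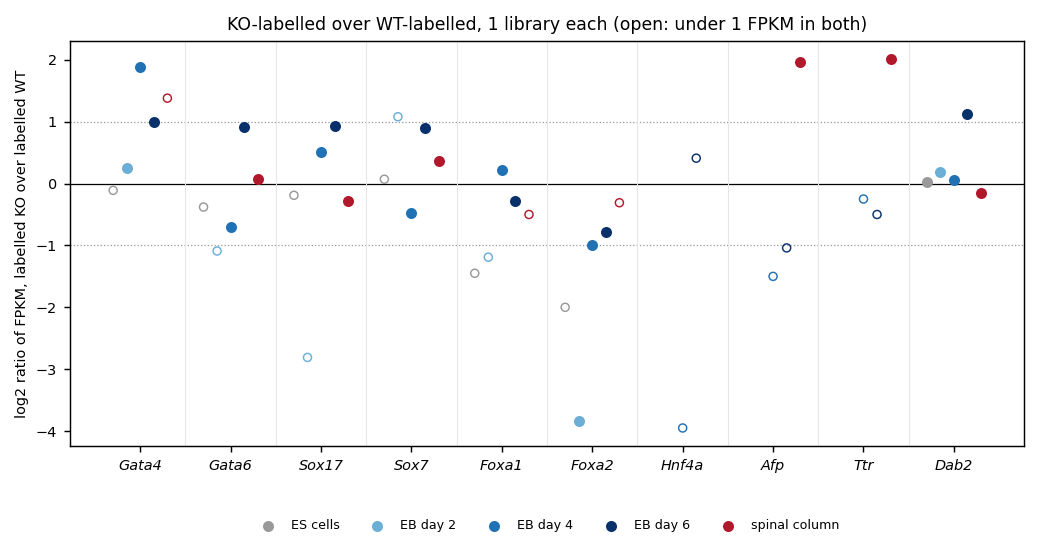
Log2 ratio of FPKM, KO-labelled over WT-labelled library (vertical axis), for each of the 10 genes and 5 comparisons, 1 library on each side, with dotted lines at 2-fold. Filled points exceeded 1 FPKM in at least 1 library, open points did not, and ratios with a value of 0 are left out; the lowest filled point is Foxa2 at day 2 (-3.84) and the highest are Ttr (2.01) and Afp (1.97) in spinal column and Gata4 at day 4 (1.89).

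In ES cells most of the 10 genes were too low to compare between the genotypes. Only Dab2 exceeded 1 FPKM, with a log2 ratio of 0.03, and 0 of the 10 genes were called in either direction, against 1.13% of all loci. No gene of the lists for visceral, parietal or definitive endoderm or for gut and liver was called. Of the other 8 lists, only the heart list held a call, Hand1 at 2.39 against 1.09 FPKM.

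At day 2 Foxa2 and a few genes of the definitive endoderm and floor plate lists were lower in the library labelled KO. Of the 3 endoderm genes above 1 FPKM in 1 library, Foxa2 was lower in KO, at 0.125 against 1.79 FPKM, a 14.3-fold difference with a log2 ratio of -3.84. The KO value is low, and the log2 ratio was -3.07 with 0.1 FPKM and -1.31 with 1 FPKM added to both values, while no call is made where both libraries must exceed 1 FPKM. In this comparison 1.37% of all loci were lower and 1.19% higher. Sox17 was lower too, at 0.11 against 0.767 FPKM, but both values were under 1. Gata4 and Dab2 had log2 ratios of 0.25 and 0.19. Of the 12 definitive endoderm genes 11 counted, 3 were lower in KO and 0 higher. They were Cer1, a secreted Nodal and BMP antagonist, at 0.0588 against 4.4 FPKM, Gsc, a homeobox factor of the organizer, at 0.273 against 2.04, and Lhx1, a LIM homeobox factor of the same region, at 0.0562 against 1.45. The highest ratio in that list was that of Krt19, at 11.5 against 5.78 FPKM.

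The floor plate list was mixed at day 2. Of its 4 genes that counted, Shh, the hedgehog ligand of node and floor plate, was lower at 0.0793 against 1.22 FPKM, and Ntn1 was lower at 4.02 against 8.24. Nkx2-9, a target of hedgehog signaling, was higher at 1.39 against 0.692, and Spon1 was at 1.38 against 1.42. In the definitive endoderm list, Cxcr4 was at 2.8 against 2.85 FPKM in KO and WT and Hhex at 3.93 against 3.73, close to equal. Otx2 was at 30 against 44.4, Eomes at 1.45 against 2.24 and Mixl1 at 0.406 against 0.706. Over that list of 12, 9 ratios were below 0 and 3 above, with a median log2 ratio of -0.35. In the WT-labelled library of day 4, Cer1, Gsc and Shh were at 0.0153, 0.241 and 0.195 FPKM, whereas Foxa2 was then at its highest. Gsc was at 1.2 FPKM in WT and 1.93 in KO at day 6. Visceral endoderm genes held 1 higher call of 6 that counted, Cited1 at 3.16 against 1.04 FPKM. The lists for parietal endoderm, gut and liver, choroid plexus, endothelium, macrophage, fibroblast, ES cell and neuron held none, and the heart list held Hand1, higher at 1.59 against 0.272.

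**Figure D3:**
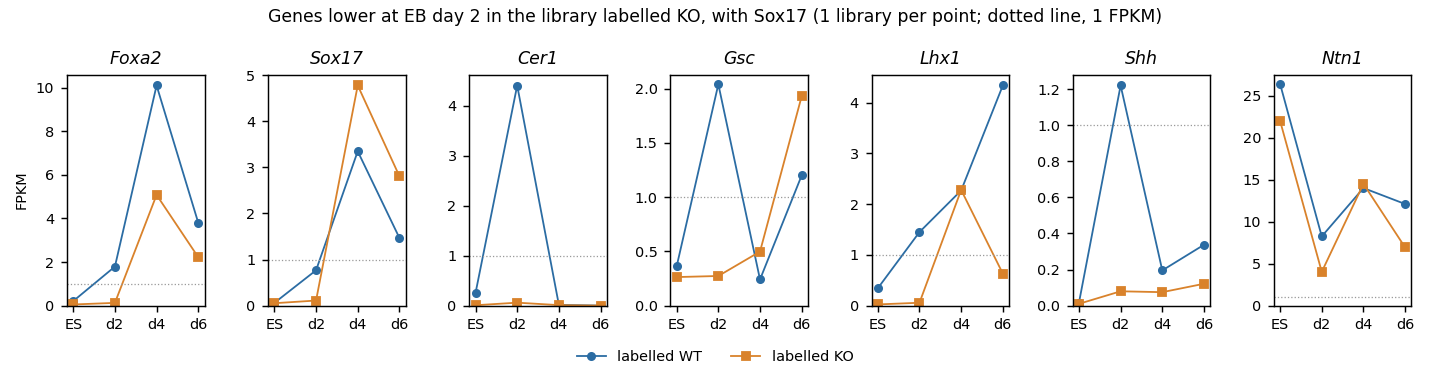
FPKM (vertical axis, linear, from 0) of Foxa2, Sox17 and the definitive endoderm and floor plate genes that were lower in the KO-labelled library at EB day 2, from ES cells to EB day 6, with circles for WT and squares for KO labels and 1 library per point. Cer1, Gsc and Shh make a peak at day 2 in the WT-labelled libraries (4.4, 2.04 and 1.22 FPKM), beside 0.0588, 0.273 and 0.0793 FPKM in the KO-labelled library of that day, while Foxa2 and Sox17 reach their highest values at day 4 in either genotype.

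At day 4 only Gata4 was called between the genotypes, higher in the library labelled KO. Gata4 was at 5.34 against 1.44 FPKM, 3.71-fold higher, and was the 1 of 7 genes that counted to be called higher, against 12.1% of all loci. A count of 1 of 7 is close to that share, and the call was lost past 4-fold. Foxa2, at 5.08 against 10.1 FPKM, had a log2 ratio of -0.99, just short of 2-fold, and so 0 genes were called lower, against 4.41%. Gata6 had a log2 ratio of -0.71, Sox7 of -0.47, Sox17 of 0.51, Foxa1 of 0.22 and Dab2 of 0.05. The factors thus lay on either side of no difference, with a median log2 ratio of 0.05 over the 7 that counted, beside -0.03 over all loci that counted.

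Apart from the definitive endoderm list, the endoderm lists were mixed at day 4 as well. Of the visceral endoderm genes 10 counted, 4 were higher in KO and 2 lower. The highest ratio was that of Apoa2, an apolipoprotein, at 10.8 against 1.16 FPKM, and the lowest that of Fgb, a fibrinogen chain, at 0.318 against 1.6. Apoa2 was also read in ES cells, at 30.6 FPKM in WT and 31.8 in KO. Of the 14 parietal endoderm and basement membrane genes, 6 were higher and 2 lower. The lower pair were Lama1, at 7.84 against 16.9 FPKM, and Col4a1, at 24.9 against 50.7, both basement membrane chains. Of the definitive endoderm genes 6 counted, 4 were higher and 0 lower, with Krt19, a keratin of simple epithelia, at 75.3 against 8.45 FPKM. The median log2 ratio of that list was 1.28. The gut and liver list had 2 genes higher, with Cdx1 at 18.8 against 1.54 FPKM, and Onecut1 lower at 0.416 against 1.55. All 10 ES cell genes and all 10 fibroblast genes were higher in this KO-labelled library. Their summed levels were 874 against 115 and 38.9 against 6.49 FPKM. Epithelial genes of the definitive endoderm list were also read in ES cells, where Cdh1 was at 146 FPKM in WT and Epcam at 156, while Krt19, at 30.2 in WT and 17.8 in KO ES cells, was below its level in the KO-labelled EBs of days 4 and 6. The heart list held 2 higher and 2 lower genes at day 4, with Hand1 at 1.16 against 0.12 FPKM and Actc1 at 0.789 against 2.35. Over all 10 heart genes, 7 ratios were above 0 and 3 below, with a median log2 ratio of 1.36, and their part in the Gata4 difference was not tested. Floor plate genes held 1 higher and 1 lower, Slit2 at 3.01 against 1.5 and Spon1 at 1.98 against 7.75 FPKM. The endothelium list held 1 higher and 1 lower, choroid plexus 1 higher, neuron 1 higher and 2 lower, and no macrophage gene exceeded 1 FPKM.

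By day 6 the Gata and Sox factors all ran higher in the library labelled KO, close to but under 2-fold. Their log2 ratios were 0.99 for Gata4, 0.92 for Gata6, 0.93 for Sox17 and 0.89 for Sox7. Dab2, at 6.31 against 2.91 FPKM with a log2 ratio of 1.12, was the 1 of 7 genes called higher, against 10.5% of all loci, and its ratio was 0.90 with 1 FPKM added to both values. Foxa2 and Foxa1 had log2 ratios of -0.78 and -0.29, and 0 genes were called lower, against 9.92%. The 4 Gata and Sox ratios were thus above 0 and the 2 Foxa ratios below it at day 6, but none of these genes was called. None of these differences could be set against a spread between replicates.

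The wider lists held more genes higher in KO at day 6. Of the visceral endoderm genes 10 counted, 6 were higher and 0 lower, with Apoa2 at 22.2 against 4.95 FPKM. In WT and KO ES cells Apoa2 was at 30.6 and 31.8 FPKM and Nid1, named next, at 23.4 and 24.5. Of the 14 parietal endoderm and basement membrane genes 10 were higher and 0 lower, with Nid1, encoding the basement membrane linker nidogen, at 22.3 against 5.56 FPKM, and Pth1r the lowest ratio at 20.6 against 35.5. Of the definitive endoderm genes 4 were higher and 2 lower, with Krt19 at 133 against 20.8 FPKM and Cxcr4 at 3.54 against 39.6. Cxcr4, a chemokine receptor, is also expressed by developing motor neurons. The gut and liver list had 3 higher and 1 lower, with Cdx2, a caudal homeobox factor of gut and trophectoderm, at 3.68 against 0.721 FPKM and Prox1 at 0.427 against 2.43.

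Genes of other cell types differed in the same library pair. Of the 10 ES cell genes 9 were higher in KO and 0 lower, of the 10 fibroblast genes 6 were higher and 0 lower, and all 10 neuron genes were lower. The endothelium list held 3 higher of 4 that counted, with Cdh5, encoding the endothelial cadherin, at 1.44 against 0.159 FPKM, and its summed level was 50.3 against 35.3. The heart list held 2 higher and 1 lower, with Hand1 at 14.5 against 1.82 FPKM, Myl7 at 4.98 against 2.33 and Hand2 at 1.63 against 5.27, and its sum was 26.1 against 13. The heart factor Nkx2-5 was at 2.41 against 1.78 FPKM, and the muscle genes Myh6 and Tnnt2 were at 0.63 against 0.369 and 0.391 against 0.178. Choroid plexus genes held 2 higher and 0 lower, and macrophage genes 1 higher, Lyz2 at 1.01 against 0.0602 FPKM. The floor plate list held 1 higher and 3 lower, with Nkx2-9 at 7.46 against 2.36 FPKM and Slit2 at 1.41 against 9.3, and its sum was 18.1 against 32.7. The part of these cell types in the differences of Gata4, Gata6, Sox17, Sox7, Foxa2 and Dab2 was not tested.

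Spinal column gave a different set of genes. Afp and Ttr were higher in the library labelled KO, at 3.25 against 0.831 FPKM and 2.2 against 0.545, with log2 ratios of 1.97 and 2.01, or 1.22 and 1.05 with 1 FPKM added to both values. They were 2 of 6 genes that counted, against 9.08% of all loci higher, and 0 were lower, against 8.51%. Both were under 1 FPKM in WT column, so they counted only through the KO-labelled library and could not be called lower. The shares of all loci are thus not a like measure for this count. Neither call stayed where both libraries must exceed 1 FPKM. Gata6, Sox17, Sox7 and Dab2 had log2 ratios of 0.08, -0.28, 0.36 and -0.15. In WT cord, Afp and Ttr were higher again, 8.47-fold and 7.38-fold above WT column. Cord and column came from separate tables, and the median log2 ratio of WT column over cord was -0.07 over all loci.

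Other plasma protein genes are given beside Afp and Ttr. The visceral endoderm and gut and liver lists held 12 of them, a group put together after their values were seen, so its counts are a description. Of these, 7 were higher in KO column and 0 lower, and 10 were highest in cord. Alb, encoding serum albumin, was at 2.5 FPKM in WT column, 16.7 in KO column and 32.8 in cord. Apoa1, encoding the main apolipoprotein of high density lipoprotein, was at 2.13, 7.28 and 20.9 FPKM in the same order. Fgb was at 0.284, 1.62 and 6.97, and Serpina1a, a protease inhibitor gene, at 0.226, 1.3 and 3.16. The KO column library had 3.91 times the Afp, 4.03 times the Ttr, 6.68 times the Alb and 3.42 times the Apoa1 of the WT column library. These 4 ratios lay between 3.42 and 6.68, and those of Serpina1a, Fgb and Fga were 5.76, 5.69 and 4.79. The ratios of Fgg and Apoa2 were lower, at 2.99 and 2.27, and that of Apoa4, under 1 FPKM in all 3 libraries, was 1.78. Rbp4 and Trf, which are expressed outside liver as well, had ratios of 1.36 and 1.32.

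Factors known from liver had unequal levels in the 3 tissue libraries. Hnf4a was at or under 0.0694 FPKM, Gata4 at or under 0.0808 and Foxa1 at or under 0.612. Foxa2 reached 0.925 FPKM in cord, Gata6 was at 1.13 and 1.2 in column, Onecut1 reached 0.563 in cord, and Prox1, also a neural factor, was at 2.35, 1.68 and 7.02 in WT column, KO column and cord. Choroid plexus is the usual source of Ttr in the central nervous system. Of its 10 listed genes, 2 exceeded 1 FPKM in WT column, 3 in KO column and 2 in cord, and the list sums were 65.2, 74 and 46.3 FPKM. Aqp1 was at 45.4 FPKM in WT column and 2.27 in cord and Enpp2 at 17.4 and 41.1, Kl was at 0.54 and 0.974, and Kcnj13, Kcne2 and Clic6 stayed under 1 FPKM in all 3 libraries, with Otx2 listed at 0. No choroid plexus gene was called between the column libraries. Which cells gave the Afp and Ttr RNA was not tested.

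**Figure D4:**
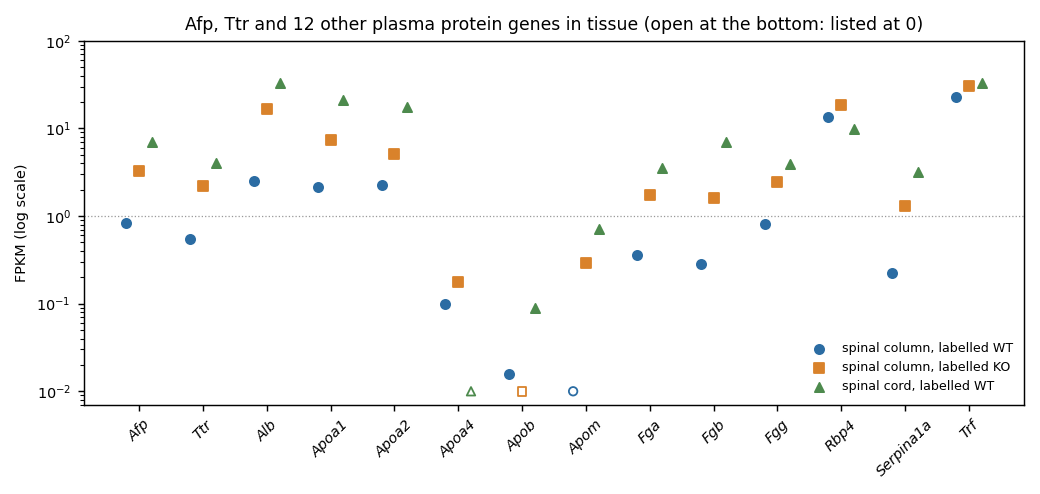
FPKM on a log axis of Afp, Ttr and 12 other plasma protein genes in spinal column labelled WT (circles), spinal column labelled KO (squares) and spinal cord labelled WT (triangles), 1 library each, with open symbols at the bottom for values listed at 0. For Afp, Ttr, Alb, Apoa1, Apoa2, Fga, Fgb, Fgg and Serpina1a the order is the same, WT column lowest and cord highest, with Alb at 2.5, 16.7 and 32.8 FPKM.

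Other lists in the column comparison are given for the same reason. Of the visceral endoderm genes 11 counted, 5 were higher in KO and 0 lower, with Fgb the highest ratio. In the gut and liver list, 2 of 3 genes were higher, Alb and Serpina1a. The definitive endoderm list held 3 higher of 7, with Gsc at 1.19 FPKM in KO and listed at 0 in WT. The parietal endoderm and basement membrane list held 0 higher and 2 lower. Macrophage genes held 2 higher and 0 lower, with Lyz2 at 56.9 against 25.4 FPKM, neuron genes 0 higher and 3 lower, heart genes 1 and 1, fibroblast genes 1 and 0, ES cell genes 1 and 0, floor plate genes 0 and 1, and endothelium none. The list sums were 238 against 150.0 FPKM for macrophage and 467 against 743 for neuron genes. Their part in the Afp and Ttr differences was not tested.

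Between the WT tissues, Dab2, Sox17 and Sox7 were higher in column than in cord, with log2 ratios of 1.94, 1.64 and 1.32, and Gata6 was higher with cord listed at 0. That made 4 of 6 genes higher, against 17.3% of all loci, and Afp and Ttr were the 2 lower, at -3.08 and -2.88, against 16%. Gata6, Sox17 and Sox7 were under 1 FPKM in cord and could not be called lower. Afp and Ttr, under 1 FPKM in WT column, could not be called higher. The shares of all loci are thus not a like measure for these counts. The endothelium list had 7 of 10 genes higher in column, with Pecam1 at 26.8 against 5.03 FPKM, and its sum was 195 against 124. Macrophage genes had 4 higher of 9, fibroblast genes 7 of 10, and heart genes 5 of 6 that counted. The heart sum of 2959 FPKM in WT column was nearly all Actc1, at 2843 FPKM, an actin of heart and developing skeletal muscle. In WT column and cord, Tnnt2 was at 105 and 1.04 FPKM, Hand2 at 4.65 and 0, and Myh6 at 4 and 0.147, while Nkx2-5 was listed at 0 in each. Parietal endoderm and basement membrane genes had 8 higher and 2 lower, while visceral endoderm genes had 1 higher and 6 lower, gut and liver genes 0 and 4, definitive endoderm genes 0 and 1, floor plate genes 0 and 4, choroid plexus genes 1 and 1, ES cell genes 1 and 1, and neuron genes 1 and 6. The part of vessels and connective tissue in the column values was not tested.

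Set against WT ES cells in the table that held both, cord had Afp and Ttr higher, with ES cells listed at 0 so that no fold is given, and Dab2 at a log2 ratio of 0.19. That was 2 of 3 genes higher, against 30.5% of all loci, and 0 lower, against 35.7%, with a median log2 ratio of -0.26 over all loci. Afp and Ttr counted only through cord and could not be called lower, so these shares are not a like measure for the count. The WT ES cell library appears in 2 tables, and its values in this one were 1.09 times those in the other across its loci. In this comparison 7 of the visceral endoderm genes were higher and 2 lower, 4 gut and liver genes higher and 2 lower, and 7 of 9 definitive endoderm genes lower.

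The genes whose profiles were most alike differed from gene to gene. Likeness was taken as Pearson's r of log2(FPKM + 1) over the 11 libraries, as a description only, since libraries share tables. Afp and Ttr were the most alike pair of the 10, with r = 0.99, followed by Foxa1 and Foxa2 with 0.94, Sox17 and Foxa1 with 0.85, and Gata6 and Sox17 with 0.79. Gata4 was least like Afp, at -0.63. Outside the 10, the profiles nearest to Afp were those of Fads2b, Fga and Serpina1e (r = 0.991, 0.991 and 0.990), and nearest to Ttr those of Serpina1e, Acot5 and Fga (0.992, 0.991 and 0.990). Serpina1e, at 0.698, 3.91 and 8.19 FPKM in WT column, KO column and cord, is 1 of several near-identical copies, so its count is uncertain. Hoxb1 and Wfikkn1 were among the genes nearest to Foxa1 (0.972 and 0.971). Hoxb1, a retinoic acid response gene of the hindbrain, stood at 12.6 FPKM in WT and 30.8 in KO at day 4, was at or under 0.0762 in ES cells and day 2 EBs, and was listed at 0 in tissue. Foxa2 was nearest to Prom1, Rbak and Crabp2 (0.944, 0.935 and 0.931), of which Crabp2, a retinoic acid binding protein gene, went from 12.7 FPKM in WT ES cells to 1800.1 at day 4.

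The other profiles named fewer familiar genes. Gata4 was nearest to Tap1, Ubxn4 and Sowahb (0.988, 0.978 and 0.976), with Tap1, an antigen peptide transporter gene, at 18.4 FPKM in KO and 6.01 in WT at day 4. Gata6 was nearest to Sri, Ebp and Smad6 (0.925, 0.922 and 0.914), and Sox7 to Cmtm3, Gbe1 and Lrp10 (0.978, 0.956 and 0.953). Cables1 and Zxda were among the genes nearest to Sox17 (0.940 and 0.914). Hnf4a was nearest to Kynu, Akr1c13 and Hkdc1 (0.892, 0.872 and 0.871), 3 metabolic enzyme genes that reached 9.3, 8.52 and 5.36 FPKM in WT day 4 EBs and 1.16, 1.39 and 1.16 in KO. Dab2 was nearest to Scarf2, Lpar1 and Slc39a13 (0.980, 0.977 and 0.970), all highest in spinal column. The mean profile of Gata4, Gata6, Sox17 and Sox7 was most like Fut4, Batf3, Zxda, Cpm and Tmem200b (0.957, 0.948, 0.944, 0.937 and 0.933).

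Few TAF9B and RNA POL2 peaks lay near these genes. The TAF9B list held 10415 peaks, typically 217 bp wide and scored 83.3 by MACS (medians), and the POL2 list 8620, typically 686 bp wide and scored 134. The lowest score in either list was 50. Of the 10 genes, 3 had a TAF9B peak within 50 kb of a TSS and 1 had a POL2 peak, against 56.7% and 58.2% of 17922 protein-coding genes. For the 10578 genes above 1 FPKM in WT day 6 EBs, the shares were 70.4% and 78.4%. The TAF9B peaks described next had scores below the median of the list.

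At Hnf4a, the peak at chr2:163357749-163357926 lay in an intron, 4.92 kb upstream of an internal TSS, with a score of 54.7 and without POL2. At Dab2, the peak at chr15:6336754-6336953 lay 74 bp past an internal TSS, with 179 of its 200 bases in an untranslated exon, a score of 53.8 and no POL2 peak.

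For Sox17, Foxa1, Gata6 and Foxa2 the nearest TAF9B peaks were 75.5, 146, 236 and 256 kb from a TSS, and for Ttr, Sox7 and Afp 81.1, 83.4 and 151 kb. The nearest POL2 peaks were 289, 316, 327 and 626 kb away for the first 4 and 81.1, 83.4 and 124 kb for the other genes. Foxa2 was thus the farthest of the 10 genes from either kind of peak. Either strand of the Hnf4a intron peak was searched for GATAA, the core letters of GATA factor sites, for ACAAT, those of SOX factors, and for TGTTTAC, those of FOXA factors, and none was found. Among windows of 178 bases at the centres of 10402 TAF9B peaks, 11.7%, 17.2% and 1.18% held them. The peaks come from WT cultures 2 days older than the last RNA library, and the matching IgG library was not used here.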

How the data were processed

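RNA-seq was analysed for 11 libraries in 6 tables, and ChIP-seq as peak lists of TAF9B and RNA POL2. The authors aligned reads to mm9 with TopHat and made the deposited FPKM values with Cuffdiff, pairwise and separately for each table. Reads for ChIP-seq were aligned with Bowtie, and the authors called peaks with MACS, whose deposited score was used as given. Versions are not given in the sources used here. The tables also hold the authors' fold changes and p-values, which were not used.

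Loci were matched by RefSeq accession and position, and 43 with a repeated pair were left out, which kept 23109. A locus counted above 1 FPKM in at least 1 of 2 libraries, and a ratio past 2-fold was called, with no pseudocount and no test because there was 1 library per condition. Groups came from the labels. The text names all 10 genes, the highest and lowest ratio in each of 12 marker lists, the genes of nearest profile (above 1 FPKM in 2 libraries), and peaks within 50 kb of a TSS of Hnf4a and Dab2. List genes named outside this rule were picked with their values in view. The members and lists were chosen with earlier results of these data known. Apoc2 and Cd68 had no row. Positions came from GENCODE on NCBIM37, where 99.2% of loci overlapped the gene of their symbol, and promoters from RefSeq. Some list genes and genes of near profile, and the positions of other peaks within 50 kb of a TSS, are not reported here. Calling was tested on simulated data. Alternatives were other filters, folds, pseudocounts and centring. Python 3.11.15, numpy 2.4.6, pandas 2.3.3 and matplotlib 3.10.9 were used.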

Additional observations from a re-analysis of the deposited data

How the results depend on the processing

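Counts of the 10 genes called under 8 comparisons were recomputed with other settings. Of these, 92 counts stayed within 1.5 times the reported one and 22 moved. Among single genes with a value above 0 in both libraries, 22 calls were lost, 25 were gained and 0 of the called ones changed sign. A further 200 kept their call or lack of one. Those were tallied only for added FPKM, centring and the second ES cell table, so they give no rate of change. With no filter on low values, KO over WT gave 1 higher and 3 lower gene calls in ES cells, 2 and 5 at day 2, 2 lower at day 4, 1 lower at day 6 and 4 higher in spinal column, and cord over ES cells gave 7 higher and 2 lower. Requiring more than 1 FPKM in both libraries left 0 lower at day 2 and 0 higher in column, cord over ES cells, and day 6 over ES cells in WT and in KO, since the lower library of each of these genes was under 1 FPKM. Past 4-fold, 0 were higher at day 4 and at day 6 and 1 in column. Past 1.5-fold, 2 were lower at day 4, 5 higher and 1 lower at day 6, and 1 lower at day 6 over ES cells in WT. With 1 FPKM added, 0 were higher at day 6. Adding 0.1 FPKM, centring on the median and taking WT ES cells from their second table moved no count. No paired analysis was possible because each condition had 1 library, and for the same reason no replicate could be left out. Genes near 1 FPKM or below rest on few fragments, and the depth that would give their error was unknown.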
